A study of Mus musculus with 10 samples.

Results

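The axon guidance genes described here are the semaphorins of classes 3 to 7, their plexin and neuropilin receptors, the ephrins and Eph receptors, the Slits and Robos, and the netrins with Dcc and the Unc5 receptors. They were chosen by gene symbol, with earlier results of these data known. The symbols gave 68 genes of the 52636 in the count table, and all 68 passed the low-count filter that left 18455 genes for testing. RNA came from S1BF, the somatosensory cortex area that maps the whiskers as barrels, in C57BL/6 mice at postnatal day 17. The 4 cKO libraries came from mice with Nex-cre and a full conditional deletion of Rxra, and the 2 Hetero libraries from mice with Nex-cre and a heterozygous one. The 4 Loxp libraries came from mice that carried the floxed allele Rxratm1Krc/J and no Cre, an allele that all 3 groups share. Nex-cre is driven from the Neurod6 locus and acts in excitatory neurons, while the libraries hold the RNA of all cells of the tissue. In such tissue, fewer cells of a type and less RNA per cell cannot be told apart. Only Loxp lacks Cre, so Cre and the deletion cannot be told apart in cKO against Loxp. The labels do not say that each library is a separate animal, so p-values speak of the spread among these libraries, which may be technical.

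Guidance cues steer growing axons and dendrites by attraction and repulsion. Semaphorins signal through plexins, and the secreted class 3 members mostly also need a neuropilin. A-type ephrins are held in the membrane by a lipid anchor and bind mainly EphA receptors, and B-type ephrins span the membrane and bind mainly EphB receptors. Both ephrins and Eph receptors can signal into the cell that carries them. Slits repel axons through Robo receptors. Netrins attract through Dcc and repel through Unc5 receptors. In the barrel cortex ephrin-A and EphA gradients are known for their part in the map that thalamic axons form. Many of the same proteins act at synapses after axons have reached their targets. Rxra encodes the retinoid X receptor alpha, a nuclear receptor that binds DNA as a partner of other nuclear receptors.

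The libraries held 19332990 to 26086337 counts, of which 0.404% to 0.459% fell on the 68 guidance genes. Between any pair of the 10 libraries the counts differed by more than sampling noise, with a chi-square per gene of 4.89 to 40.8 over 45 pairs. Markers of excitatory neurons, deep and upper layers, interneurons and glia were all detected in every library. Whole-gene Rxra had 29.0, 32.3, 29.3 and 32.0 CPM (read counts scaled to a common library total) in cKO, 23.2 and 26.4 in Hetero and 24.5, 21.6, 28.3 and 31.8 in Loxp. The log2 fold change of Rxra in cKO against Loxp was 0.21 (SE 0.112, edgeR adjusted p = 0.9998), and counts over the whole gene do not check whether the floxed part was deleted. Neurod6 had 32.9, 22.9, 38.1 and 24.0 CPM in cKO, 34.4 and 34.0 in Hetero and 66.7, 55.7, 61.9 and 34.9 in Loxp. The library labelled Loxp 4 thus lay within the Neurod6 range of the Nex-cre libraries and outside that of the other 3 Loxp libraries, and it was kept under its label. The library Hetero 2 carried RNA of the choroid plexus: its 6 marker genes summed to 733 CPM there, against 3.43 to 22.2 in cKO, 6.79 in Hetero 1 and 2.87 to 6.88 in Loxp.

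The members covered a wide range of levels, which are compared between genes as the deposited FPKM, a value per transcript length. Averaged over the 10 libraries, 8 members reached at least 20 FPKM and 18 at least 10, while 45 lay between 1 and 10 and 5 below 1. The membrane-bound semaphorins stood at the top. Sema7a, a lipid-anchored semaphorin that acts through integrin and plexin C1 receptors, had 111.7, 75.7, 120.0 and 126.7 FPKM in cKO, 116.9 and 119.0 in Hetero and 120.8, 111.9, 139.5 and 132.3 in Loxp. The lowest value was that of cKO 2, and the groups overlapped. Sema6b, a transmembrane semaphorin that binds A-type plexins, had 85.4, 112.3, 86.2 and 97.6 FPKM in cKO, 89.3 and 91.0 in Hetero and 92.1, 61.3, 88.8 and 89.8 in Loxp. Here cKO 2 was the highest and Loxp 2 the lowest of all 10 libraries. These 2 genes alone made up 39.8% and 30.3% of the summed FPKM of the 13 semaphorins of classes 4 to 7.

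In most other classes as well, a single member held much of the level. Ephb6, an Eph receptor whose kinase domain is inactive, averaged 61.1 FPKM over the 10 libraries and made up 71.5% of the EphB level. Efnb3 averaged 29.9 FPKM, 67.9% of the B-type ephrins, and Efna3 24.3 FPKM, 58.1% of the A-type ephrins. Among EphA receptors Epha4, which binds ephrins of both types, led with 28.1 FPKM, or 49.6% of the class. Unc5a, a repulsive netrin receptor, averaged 29.6 FPKM, while Dcc averaged 1.07. Ntn4 at 4.45 FPKM was the highest netrin, ahead of Ntn1 at 1.89 and Ntn5 at 1.65. Plxnd1, a receptor of Sema3e, averaged 27.9 FPKM and Plxna3, a partner of neuropilins, 3.87. The secreted class 3 semaphorins were all low, from 3.98 FPKM for Sema3c to 0.527 for Sema3b, and so were the neuropilins, at 2.43 FPKM for Nrp1 and 1.16 for Nrp2. Among Robos, Robo3 was highest at 17.8 FPKM and Robo4, known mainly from endothelium, lowest at 2.56. Slit1 at 9.36 FPKM exceeded Slit2 at 1.67. The weakest members of their classes were Epha1 at 0.154 FPKM, Efna4 at 0.234, Ephb4 at 1.53, Sema4b at 3.65 and Efnb1 at 4.12.

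**Figure D1:**
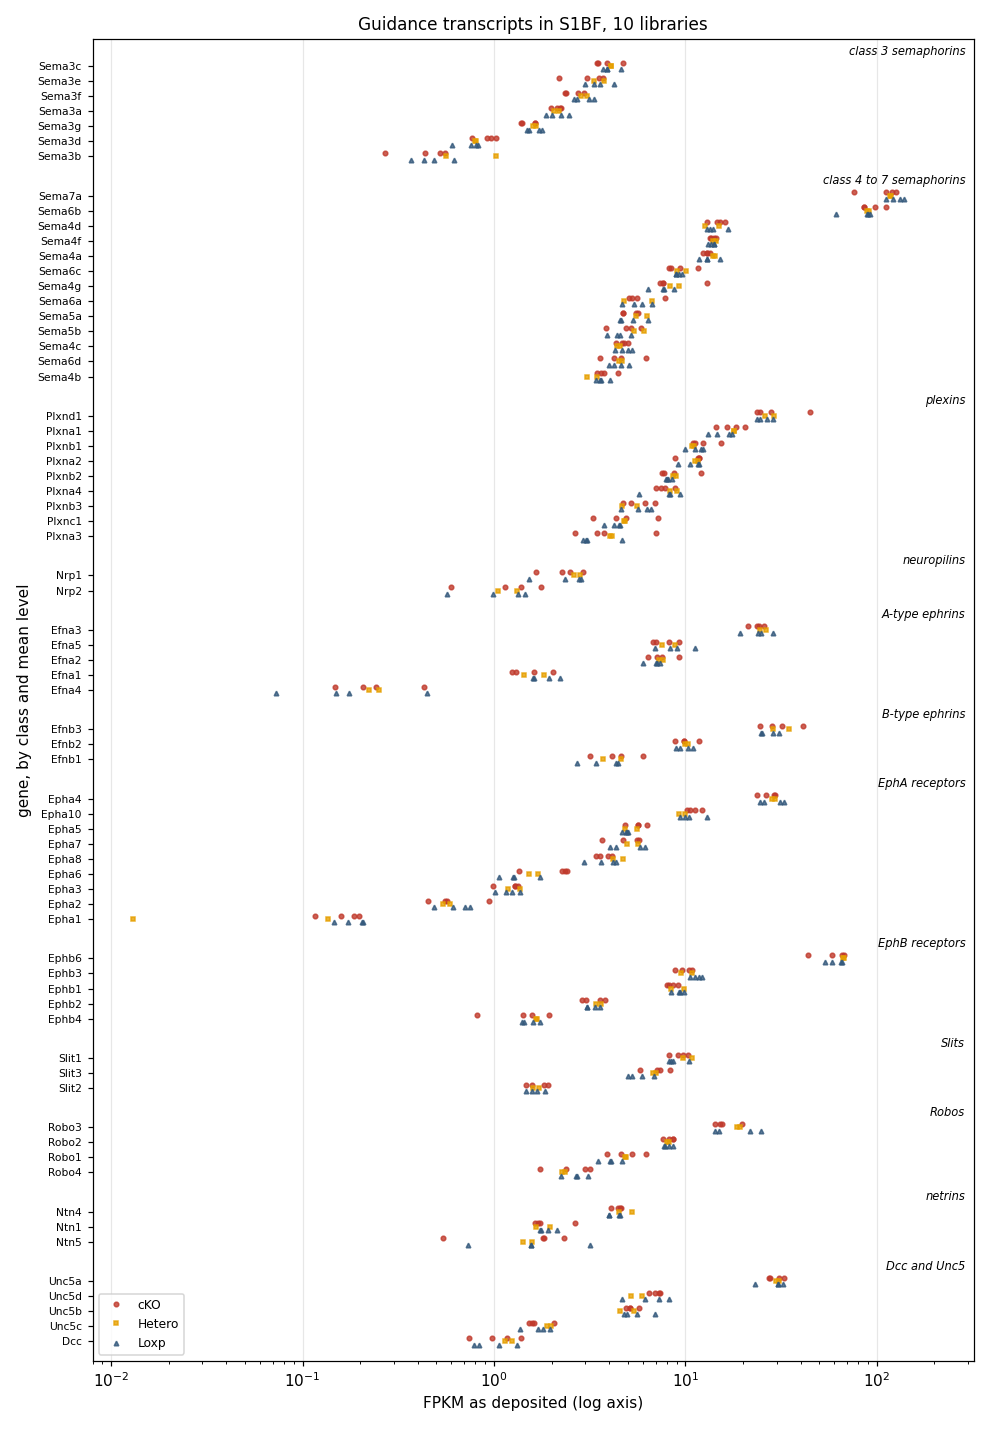
Deposited FPKM (log axis) of the 68 guidance genes in each of the 10 libraries, grouped by class and ordered by mean level; circles are cKO, squares Hetero and triangles Loxp. Sema7a and Sema6b lie highest, Epha1 lowest, and the points of the 3 genotypes run together for nearly every gene.

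Between cKO and Loxp, which asks what full deletion of Rxra with Nex-cre goes with, no guidance gene passed the test. With edgeR's quasi-likelihood test over all 18455 genes, 0 of 68 members and 0% of all genes had an adjusted p under 0.05. DESeq2 and limma-voom also called 0 members. The authors' deposited table held 0 members, and 0 of 29220 genes, with an adjusted p under 0.05. At an unadjusted p under 0.05, 5 of 68 members (7.35%) stood beside 2.53% of all genes, and no member separated the 4 cKO from the 4 Loxp libraries, where 1.54% of all genes did. The members' median log2 fold change was 0.03, against 0.00 over all genes, and 38 of 68 were above 0, a share of 55.9% beside 50.1% of all genes. Without cKO 2 the median was −0.01, with 32 of 67 fitted members above 0, and without the library labelled Loxp 4 it was 0.03. With single libraries left out, the number of members with an unadjusted p under 0.05 lay between 2 and 10. It was 2 without cKO 2 or without Loxp 1, and 10 without cKO 4. It was 3 without Loxp 2, Loxp 3, cKO 1 or the library labelled Loxp 4. For fits with a library left out, here and below, the share of all genes at that p was not counted. Such numbers thus cannot be set against all genes.

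**Figure D2:**
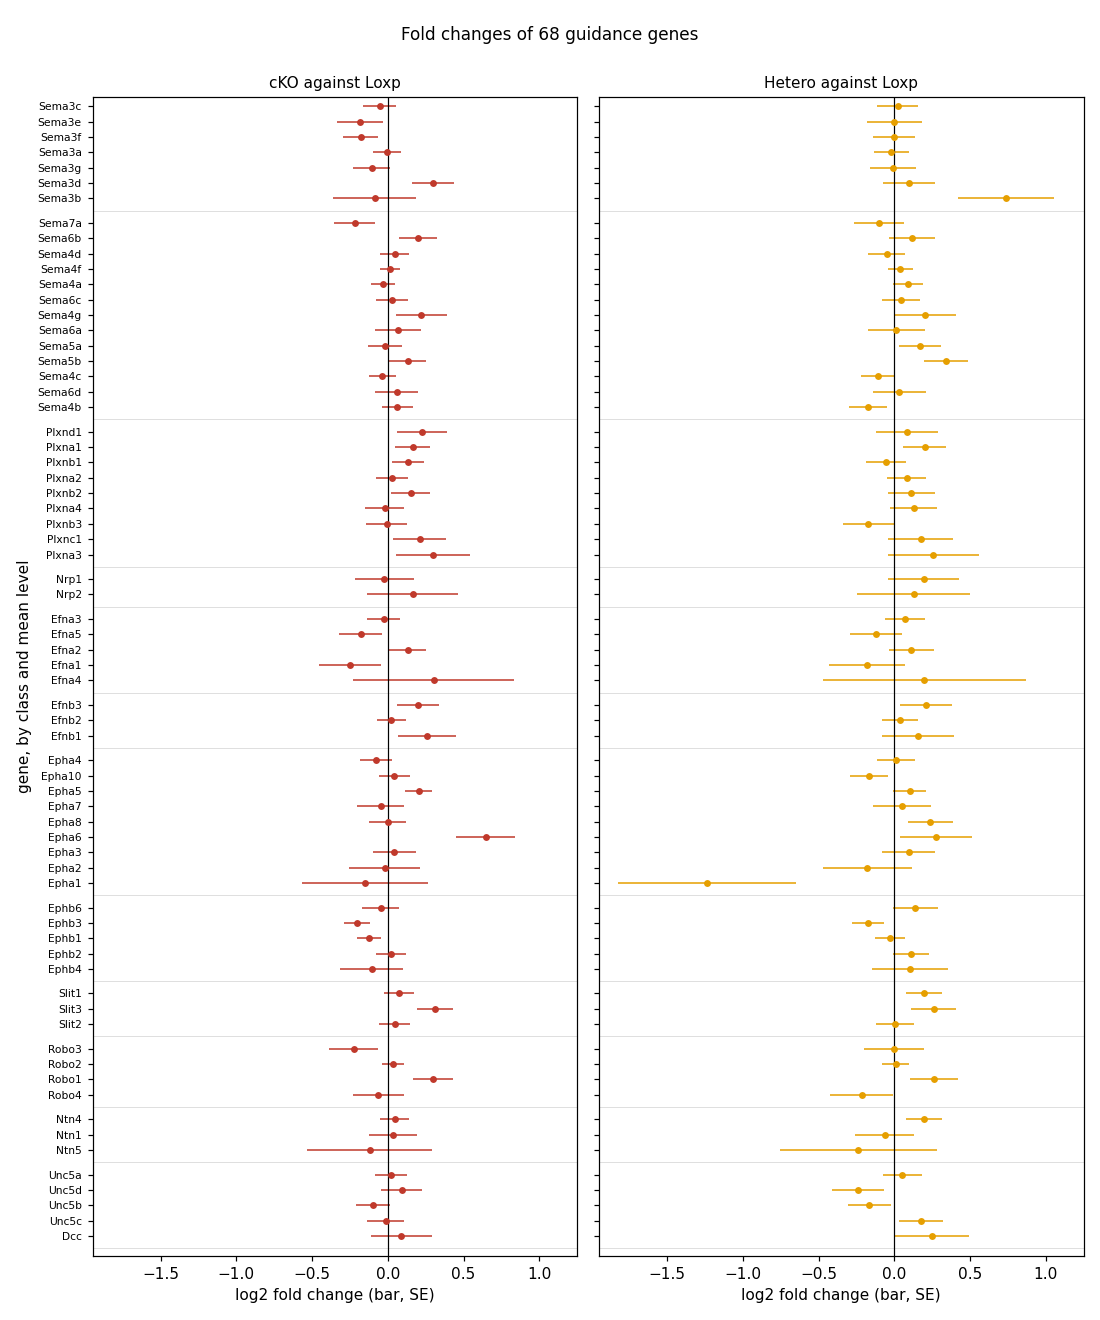
Log2 fold changes of the 68 guidance genes, by class, in cKO against Loxp and in Hetero against Loxp. Points are edgeR estimates and bars their SE. Most points lie within 0.5 of 0, Epha6 is the highest in cKO against Loxp at 0.65, and Epha1 and Sema3b stand out in Hetero against Loxp.

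The spread between libraries set what these comparisons could show. The biological coefficient of variation of a member had a median of 13.1% and ranged from 8.07% for Sema4f to 40.3% for Ntn5. Between cKO and Loxp the median SE of a member's log2 fold change was 0.125, and the 95% interval lay within 1 of 0 for 64 of 68 members and within 0.5 for 46. In the comparisons with Hetero the median SE was 0.153, with 64 of 68 intervals within 1 in both. These intervals limit the size of a difference and do not show that levels were alike.

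The smallest p of any member belonged to Epha6, an EphA receptor of the brain (ENSMUSG00000055540, GRCm38 chromosome 16, 59653483 to 60605531). Its CPM were 12.5, 12.1, 12.8 and 7.15 in cKO, 8.12 and 9.08 in Hetero and 5.68, 6.70, 9.32 and 6.70 in Loxp. The libraries cKO 1, cKO 2 and cKO 3 lay above all Loxp libraries, and cKO 4 lay among the Loxp libraries. Means were 11.1 ± 2.68 CPM in cKO and 7.10 ± 1.55 CPM in Loxp (SD, n = 4 each). The log2 fold change was 0.65 (SE 0.193, 95% interval 0.23 to 1.06, edgeR adjusted p = 0.9998), so Epha6 did not pass. Over the alternatives it ranged from 0.55, without Loxp 1, to 0.81, without cKO 4, and it was 0.62 without the library labelled Loxp 4. The smallest adjusted p of Epha6 under any alternative was 0.0934, in edgeR with no low-count filter. An exon of Epha6 overlaps the gene model Gm9017 on the opposite strand, and with counting not stated to use strand their reads cannot be told apart.

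The receptors and cues with the next smallest p had smaller differences. Slit3, a secreted Slit (ENSMUSG00000056427, chromosome 11, 35121224 to 35708507), had 45.2, 51.1, 43.6 and 35.1 CPM in cKO, 41.4 and 43.1 in Hetero and 32.3, 30.8, 42.0 and 35.9 in Loxp. Its groups overlapped through cKO 4. The log2 fold change of Slit3 was 0.31 (SE 0.120, edgeR adjusted p = 0.9998). The value of Slit3 was 0.32 when the library labelled Loxp 4 was left out. Robo1, a Slit receptor, had 39.9, 47.5, 35.3 and 29.5 CPM in cKO, 37.3 and 37.0 in Hetero and 31.0, 30.9, 35.5 and 26.4 in Loxp. The highest value was that of cKO 2, without which its log2 fold change was 0.18, against 0.30 with it (SE 0.131, edgeR adjusted p = 0.9998), and it was 0.23 without the library labelled Loxp 4. Both other Slits were close to 0, at 0.07 for Slit1 and 0.04 for Slit2, while Robo2 was at 0.03, Robo3 at −0.23 and Robo4 at −0.06.

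Among Eph receptors, Epha5, which binds A-type ephrins, had 95.3, 106, 95.5 and 81.1 CPM in cKO, 81.5 and 94.7 in Hetero and 84.8, 83.3, 82.5 and 78.1 in Loxp. Again cKO 4 lay among the Loxp libraries. Its log2 fold change was 0.20 (SE 0.0882, edgeR adjusted p = 0.9998). Ephb3, a receptor of B-type ephrins, was the one member of these 5 that was lower in cKO, with 56.0, 66.2, 68.5 and 60.8 CPM in cKO, 68.6 and 59.8 in Hetero and 74.7, 66.7, 77.3 and 70.5 in Loxp. Its log2 fold change was −0.20 (SE 0.0864, edgeR adjusted p = 0.9998). At an unadjusted p under 0.05 the 4 higher members stood beside 1.46% of all genes and the 1 lower member beside 1.06%. Leaving out the library labelled Loxp 4 gave log2 fold changes of 0.19 for Epha5 and −0.21 for Ephb3, and neither kept an unadjusted p under 0.05, nor did Robo1.

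The other members named for their small p in this comparison all had an unadjusted p above 0.05. Sema3d, a secreted semaphorin, averaged 7.96 ± 0.955 CPM in cKO and 6.47 ± 0.853 in Loxp (SD, n = 4 each), a log2 fold change of 0.30, or 0.33 without the library labelled Loxp 4. Sema7a averaged 360 ± 75.1 CPM in cKO and 419 ± 40.5 in Loxp, a log2 fold change of −0.22 that was −0.08 without cKO 2 and −0.19 without the library labelled Loxp 4. Sema6b averaged 382 ± 50.7 CPM in cKO and 332 ± 57.8 in Loxp, a log2 fold change of 0.20 that was 0.08 without Loxp 2, 0.11 without cKO 2 and 0.24 without the library labelled Loxp 4. The 2 most abundant semaphorins thus differed in opposite directions. The Sema7a difference was smaller without cKO 2, and that of Sema6b was smaller without Loxp 2 or without cKO 2. With replicate number as a block in the fit, Sema7a was at −0.24 (SE 0.0997) and Sema6b at 0.20 (SE 0.135). Sema3f, a ligand of Nrp2, averaged 13.6 ± 1.57 CPM in cKO and 15.4 ± 1.73 in Loxp, a log2 fold change of −0.18 that was −0.11 without the library labelled Loxp 4. Ephb1, an Eph receptor, averaged 59.8 ± 3.34 CPM in cKO and 65.1 ± 4.35 in Loxp, a log2 fold change of −0.12 with that library and without it. Efnb3 averaged 101 ± 23.0 CPM in cKO and 87.9 ± 9.83 in Loxp, with a log2 fold change of 0.20 that was 0.05 without cKO 2, 0.30 without cKO 4 and 0.16 without the library labelled Loxp 4. Plxna1, a signal-carrying partner of neuropilins, averaged 159 ± 24.1 CPM in cKO and 142 ± 18.99 in Loxp, with a log2 fold change of 0.17 that was 0.08 without cKO 2, 0.09 without Loxp 1, 0.25 without cKO 4 and 0.14 without the library labelled Loxp 4.

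**Figure D3:**
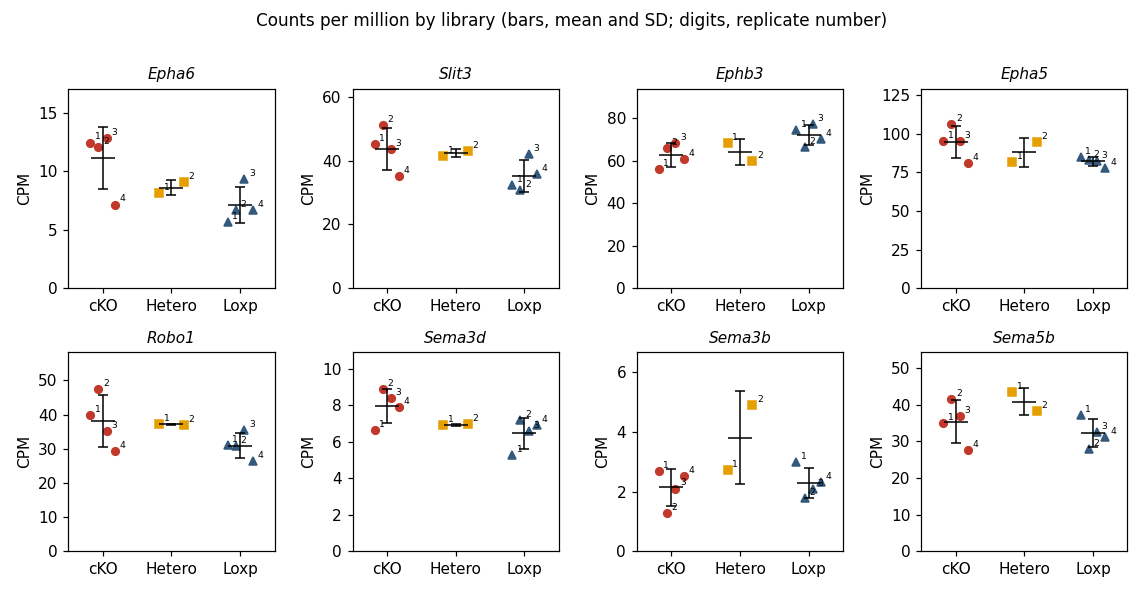
CPM of 8 guidance genes in every library of cKO, Hetero and Loxp; digits are replicate numbers, horizontal marks the mean and bars the SD. In Epha6 cKO 1 to cKO 3 lie above all Loxp libraries and cKO 4 lies at 7.15 CPM among them, and in Sema3b Hetero 2 lies highest at 4.90 CPM.

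By class, several leans in cKO against Loxp rested on 1 library. Of 9 plexins 7 were above 0 and their median log2 fold change was 0.15, but without cKO 2 it was −0.02, with 4 of 9 above 0. The summed plexin level was 97.7, 130.0, 94.0 and 89.9 FPKM in cKO, 98.5 and 100.1 in Hetero and 81.7, 101.0, 94.6 and 94.98 in Loxp. The 3 B-type ephrins had a median of 0.20, which was 0.05 without cKO 2. The semaphorins of classes 4 to 7 had 9 of 13 members above 0 and a median of 0.04, against 5 of 13 and −0.02 without cKO 2. Of 7 class 3 semaphorins 6 were below 0, with a median of −0.09, and the median without cKO 2 was 0.00. The EphB receptors had 4 of 5 members below 0 and a median of −0.11, which stayed between −0.12 and −0.06 with each library left out. The 3 Slits were all above 0, with a median of 0.07 that lay between 0.05, without the library labelled Loxp 4, and 0.16, without Loxp 1. The 2 neuropilins had a median of 0.07 whose sign turned on single libraries: it was −0.12 without the library labelled Loxp 4, −0.05 without cKO 2 and 0.25 without cKO 4. The medians of the remaining classes were −0.03 for A-type ephrins, 0.00 for EphA receptors, −0.02 for Robos, 0.03 for netrins and 0.02 for Dcc with the Unc5 receptors, and each of these 5 was above 0 with some libraries left out and below 0 with others. Without the library labelled Loxp 4 the medians were 0.16 for plexins, 0.16 for B-type ephrins, 0.04 for the semaphorins of classes 4 to 7, −0.07 for those of class 3 and −0.12 for EphB receptors.

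The genes that showed how far cKO 2 stood from the other cKO libraries were chosen after their values were seen. Plxnd1 (ENSMUSG00000030123, chromosome 6, 115954811 to 115995005) had 206, 328, 174 and 181 CPM in cKO, 191 and 212 in Hetero and 174, 211, 181 and 195 in Loxp. Apart from cKO 2 its values overlapped throughout, and the log2 fold change of 0.22 was −0.02 without that library. Sema4g, a transmembrane semaphorin, had 37.2, 64.0, 37.5 and 35.9 CPM in cKO, 40.8 and 45.2 in Hetero and 31.4, 43.1, 37.9 and 37.1 in Loxp, and its 0.22 likewise was −0.02 without cKO 2. Plxnb2, a receptor of class 4 semaphorins, had 62.5, 87.0, 55.3 and 54.2 CPM in cKO, 61.8 and 64.3 in Hetero and 57.2, 57.0, 61.0 and 58.2 in Loxp. Plxna2, a receptor of class 6 semaphorins, went the other way: cKO 2 had 153 CPM against 201 to 203 in the other 3 cKO libraries.

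Across members, cKO 2 was the highest of the 4 cKO libraries in 34 of 68, or 50%, against 35.3% of the 15183 genes that averaged at least 1 CPM, and the lowest in 15, or 22.1%, against 34.9%. It was highest in 7 of 9 plexins and 11 of 13 semaphorins of classes 4 to 7. The library cKO 4 was the lowest of the 4 in 34 of 68, or 50%, against 26.7% of all such genes. At either end of its group, cKO 2 stood in 72.1% of members beside 70.2% of all such genes, and cKO 4 in 61.8% beside 52.1%. Loxp 2 stood at either end of the Loxp libraries in 72.1% of members beside 53.6% of such genes. Marker lists of several cell types also set cKO 2 apart. All 5 markers of oligodendrocyte precursors were highest there, with a sum of 722 CPM against 417 to 434 in the other cKO libraries, 414 to 479 in Hetero and 441 to 551 in Loxp. All 6 oligodendrocyte markers were lowest, with a sum of 5955 CPM against 8308 to 9827 in the other cKO libraries, 6408 to 9325 in Hetero and 8392 to 10572 in Loxp. All 6 markers of striatal projection neurons were lowest too, at 223 CPM against 571 to 829 in the other cKO libraries, 430 to 540 in Hetero and 237 to 948 in Loxp, where the lowest was Loxp 2. Markers of layer 6, of which 5 of 6 were lowest in cKO 2, summed to 98.2 CPM against 167 to 179 in the other cKO libraries, 172 to 174 in Hetero and 128 to 187 in Loxp. All 6 microglia markers were highest in cKO 2, with a sum of 277 CPM against 218 to 222 in the other cKO libraries. All 6 markers of meningeal fibroblasts were lowest there, at 65.8 CPM against 130 to 141. Of the astrocyte markers 5 of 6 were highest in cKO 2. Of the interneuron markers 5 of 6 were lowest, as were 5 of 6 of layers 2 to 4. None of these markers was at 0 in any library. Their part in the values of the plexins, semaphorins and B-type ephrins was not tested.

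**Figure D4:**
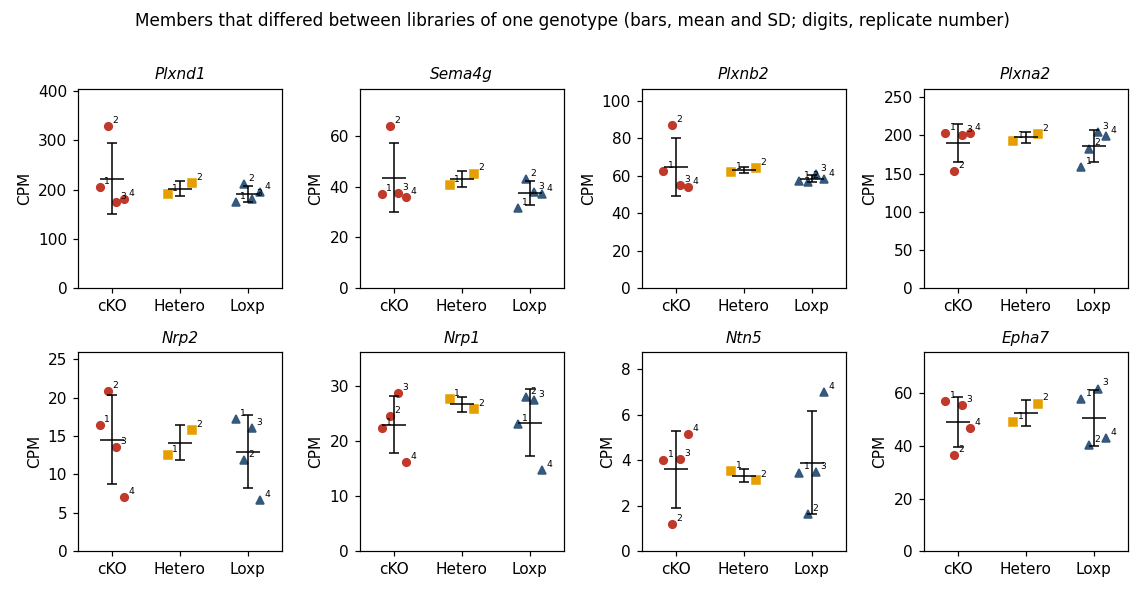
CPM of 8 guidance genes that varied within genotypes, in every library of cKO, Hetero and Loxp; digits are replicate numbers, horizontal marks the mean and bars the SD. In Plxnd1, Sema4g and Plxnb2 cKO 2 lies above all other libraries, and in Nrp1 and Nrp2 cKO 4 and the library labelled Loxp 4 are the lowest of all.

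Some members varied within a genotype far more than between genotypes. Nrp2, a co-receptor of class 3 semaphorins, had 16.4, 20.9, 13.6 and 7.06 CPM in cKO, 12.5 and 15.7 in Hetero and 17.2, 11.9, 16 and 6.74 in Loxp. Nrp1, which also binds vascular growth factors, had 22.4, 24.6, 28.7 and 16.3 CPM in cKO, 27.7 and 25.8 in Hetero and 23.1, 28.1, 27.4 and 14.9 in Loxp. In both genes cKO 4 and the library labelled Loxp 4 were the lowest of the 10. Ntn5, a netrin, had 4.02, 1.21, 4.05 and 5.14 CPM in cKO, 3.52 and 3.15 in Hetero and 3.47, 1.63, 3.499 and 7.02 in Loxp, and an exon of it overlaps the gene Sec1 on the opposite strand. Epha7, an EphA receptor, had 57.1, 36.4, 55.6 and 46.9 CPM in cKO, 49.0 and 56.1 in Hetero and 57.6, 40.3, 61.8 and 42.9 in Loxp. In Ntn5 and Epha7 the lowest libraries were cKO 2 and Loxp 2. In each gene the lowest libraries thus shared a replicate number, though the labels state no pairing by number. With replicate number as a block in the fit, the SE in cKO against Loxp was smaller. It was 0.16 for Nrp2, 0.095 for Nrp1, 0.23 for Ntn5 and 0.12 for Epha7, against 0.30, 0.19, 0.41 and 0.16 without the block. These 4 genes too were chosen after their values were seen. Their lowest libraries share a number, so a smaller SE with a block on it largely follows from the choice. It is thus no evidence of pairing.

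**Figure D5:**
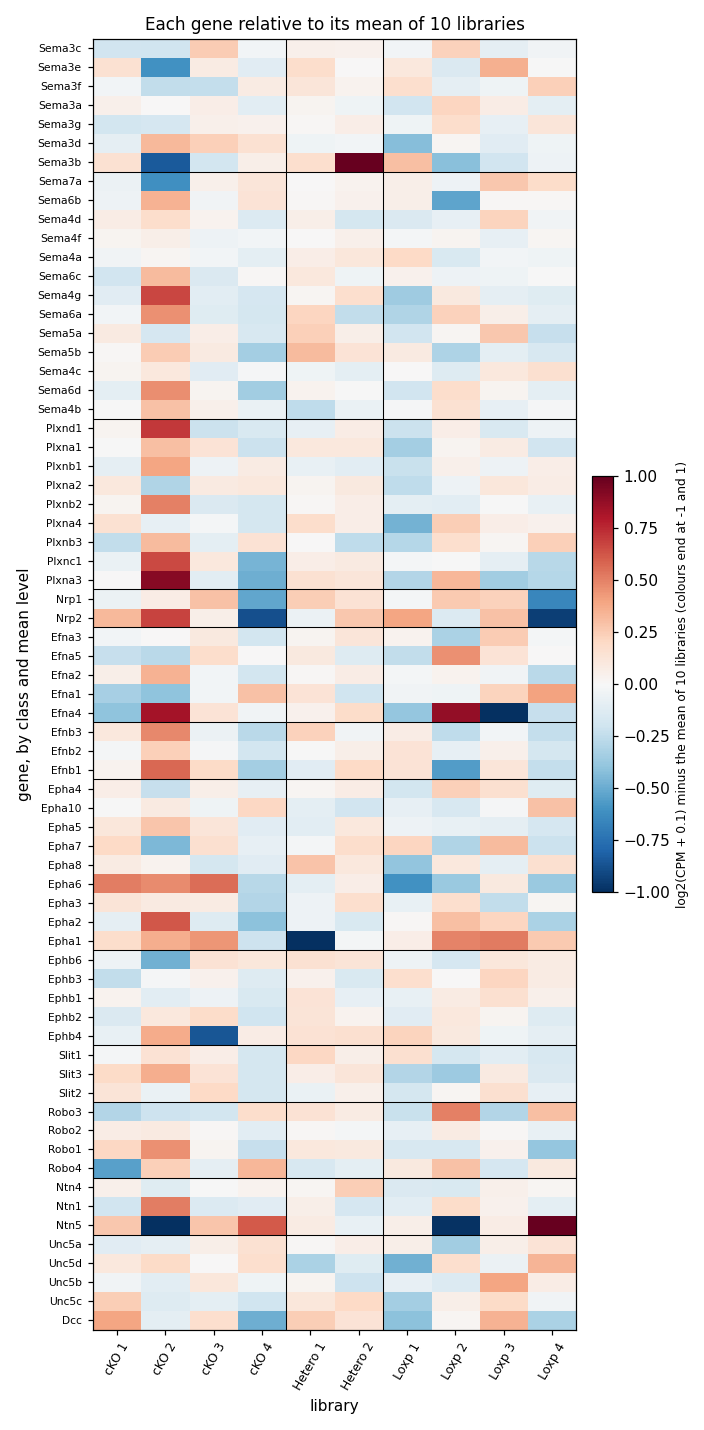
Log2(CPM + 0.1) of each of the 68 guidance genes minus its mean over the 10 libraries, with genes by class in rows and libraries in columns, cKO, Hetero and Loxp from left to right; colours end at −1 and 1. The column of cKO 2 holds high values across most plexins and semaphorins of classes 4 to 7, and no gene separates the 4 cKO from the 4 Loxp libraries.

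Hetero against Loxp asks the same of the heterozygous deletion, and it shares its Loxp libraries with the comparison above. Here too 0 of 68 members and 0% of all genes passed in edgeR, DESeq2 and limma-voom called 0 members, and 0 members had an adjusted p under 0.05 in the authors' deposited table. At an unadjusted p under 0.05 there were 2 members, 2.94% of 68 beside 2.54% of all genes, and there were 0 without Loxp 2 or the library labelled Loxp 4, 1 without Hetero 1 and 4 without Loxp 1. The Hetero and Loxp libraries did not overlap in 7 members, 10.3% beside 11.4% of all genes. Sema5b, Plxna1, Plxnb2, Plxnc1, Ephb6 and Robo1 were higher, 6 of 68 beside 5.64% of all genes, and Epha1 was lower, 1 of 68 beside 5.77%. The median log2 fold change of the members was 0.06, against −0.01 over all genes, and 47 of 68 were above 0, or 69.1% beside 48.2%.

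Sema3b, a secreted semaphorin that binds neuropilins (ENSMUSG00000057969, chromosome 9, 107597674 to 107609229), had the smallest p in this comparison. Its CPM were 2.71 and 4.90 in Hetero and 2.68, 1.30, 2.10 and 2.51 in cKO, against 2.99, 1.77, 2.08 and 2.31 in Loxp. Only Hetero 2 lay above all Loxp libraries. The log2 fold change was 0.74 (SE 0.318, edgeR adjusted p = 0.9998), and it was 0.25 without Hetero 2, 1.10 without Hetero 1 and 0.75 without the library labelled Loxp 4. Hetero 2 is the library with choroid plexus RNA, in which all 6 choroid plexus markers were the highest of the 10 libraries and Ttr alone reached 699 CPM, while Otx2 and Kcne2 were at 0 in at least 1 other library. Markers of meningeal fibroblasts summed to 159 and 185 CPM in Hetero, with Hetero 2 the higher, 65.8 to 141 in cKO and 111 to 137 in Loxp. The part of either in the Sema3b value was not tested.

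Sema5b, a transmembrane semaphorin (ENSMUSG00000052133, chromosome 16, 35541145 to 35664732), had 43.4 and 38.2 CPM in Hetero and 35.0, 41.6, 37.0 and 27.5 in cKO, against 37.0, 28.0, 32.6 and 31.1 in Loxp. Both Hetero libraries lay above all Loxp libraries, and the cKO libraries overlapped with both groups. The log2 fold change of Sema5b was 0.34 (SE 0.148, edgeR adjusted p = 0.9998), and it moved by under 0.05 without the library labelled Loxp 4. Epha1, an EphA receptor known mainly from epithelia, had the largest difference, at −1.24 (SE 0.588, edgeR adjusted p = 0.9998). It rested on 1 and 12 reads in Hetero, with 16, 17, 20 and 11 in cKO, against 12, 17, 21 and 17 in Loxp. A fitted fold change from so few reads depends on the prior count, and it was −0.42 without Hetero 1, −3.69 without Hetero 2 and −1.26 without the library labelled Loxp 4. An exon of Epha1 also overlaps Zyx on the opposite strand.

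The other members named for their small p were Slit3, Slit1, Robo1 and Ntn4, higher in Hetero, and Ephb3, lower. Slit3 averaged 42.2 ± 1.23 CPM in Hetero (SD, n = 2) and 35.3 ± 4.99 in Loxp (SD, n = 4), a log2 fold change of 0.26, or 0.28 without the library labelled Loxp 4. Slit1 averaged 60.9 ± 4.41 CPM in Hetero and 53.1 ± 6.07 in Loxp, a log2 fold change of 0.20 that was 0.12 without Hetero 1 and 0.18 without the library labelled Loxp 4. Robo1 averaged 37.1 ± 0.207 CPM in Hetero and 31.0 ± 3.73 in Loxp, a log2 fold change of 0.26, which was 0.20 without the library labelled Loxp 4. Ntn4, a netrin of basement membranes, averaged 18.4 ± 2.03 CPM in Hetero and 16.1 ± 1.22 in Loxp, a log2 fold change of 0.19 that was 0.08 without Hetero 2, 0.30 without Hetero 1 and 0.23 without the library labelled Loxp 4. Ephb3 averaged 64.2 ± 6.16 CPM in Hetero and 72.3 ± 4.67 in Loxp, a log2 fold change of −0.17 that was −0.07 without Hetero 2, −0.27 without Hetero 1 and −0.18 without the library labelled Loxp 4. None of these 5 had an unadjusted p under 0.05. Side by side, Slit3 and Robo1 were at 0.31 and 0.30 in cKO and both at 0.26 in Hetero, each relative to the same 4 Loxp libraries.

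Between cKO and Hetero, which both carry Nex-cre, 0 of 68 members and 0% of all genes passed in edgeR, and DESeq2 and limma-voom called 0 members. At an unadjusted p under 0.05 there was 1 member, 1.47% of 68 beside 1.74% of all genes, and it was lower in cKO, as were 0.764% of all genes; without cKO 2 or without cKO 4 there were 2. In 6 members (8.82%, beside 9.43% of all genes) the groups did not overlap, and 33 of 68 were above 0, or 48.5% beside 52.5%. The member with an unadjusted p under 0.05 was Sema3b, with 2.15 ± 0.617 CPM in cKO (SD, n = 4) and 3.80 ± 1.55 in Hetero (SD, n = 2). Its log2 fold change was −0.83 (SE 0.317, edgeR adjusted p = 0.9999), and −0.33 without Hetero 2. Unc5d, a netrin receptor of cortical neurons, averaged 65.1 ± 3.77 CPM in cKO and 51.8 ± 4.90 in Hetero, with a log2 fold change of 0.33 (SE 0.171). The Loxp libraries had 43.1, 67.6, 57.6 and 76.1 CPM of Unc5d and spanned both groups. Sema4b, a transmembrane semaphorin, averaged 21.7 ± 2.46 CPM in cKO and 18.5 ± 1.68 in Hetero, a log2 fold change of 0.23 that was 0.15 without Hetero 1 or without cKO 2, and Epha10, an Eph receptor with an inactive kinase domain, 80.0 ± 6.38 in cKO and 69.3 ± 3.21 in Hetero. Epha8, an EphA receptor, averaged 17.9 ± 1.52 CPM in cKO and 21.1 ± 1.81 in Hetero, a log2 fold change of −0.24 that was −0.15 without Hetero 1. Epha1 was at 1.08, with the few reads given above, and at 0.27 without Hetero 1 and 3.54 without Hetero 2.

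Genes that act beside or behind these receptors were read from separate lists of 23 partners, such as adhesion molecules and other netrin and neuropilin binders, and 51 effectors inside the cell. No gene of either list passed the adjusted threshold in any comparison in edgeR. In cKO against Loxp 15 of 23 partners were above 0, with a median of 0.02, and 29 of 51 effectors, with a median of 0.01. At an unadjusted p under 0.05 there was 1 partner, Dscaml1, a cell adhesion molecule with a log2 fold change of 0.33 (SE 0.130), followed by L1cam, an adhesion molecule that binds Nrp1, at 0.32 (SE 0.149). Among effectors there was none, and the smallest p belonged to Chn2, a Rac inhibitor, at −0.17 (SE 0.0908) and Tiam1, a Rac activator, at 0.25 (SE 0.136). In Hetero against Loxp 16 of 23 partners and 28 of 51 effectors were above 0, with medians of 0.05 and 0.01. There the smallest p among partners belonged to Vegfa, a vascular growth factor that binds neuropilins, at −0.22 (SE 0.133), and L1cam at 0.27 (SE 0.180), and Fes, a tyrosine kinase downstream of Sema3a, was the 1 effector with an unadjusted p under 0.05, at −0.51 (SE 0.198), followed by Limk1, a kinase of cofilin, at 0.14. In cKO against Hetero 10 of 23 partners and 26 of 51 effectors were above 0, with medians of −0.02 and 0.01. Draxin, a secreted Dcc ligand, was at 1.01 (SE 0.589) and Dscaml1 at 0.21, and the effectors with the smallest p were Fes at 0.36 and Enah, an actin regulator, at 0.17.

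Retinoid X receptors bind DNA with their partner receptors at pairs of a half-site, for which the letters AGGTCA were searched on both strands in RefSeq promoter windows (GRCm38.p6) of 250 bases before to 50 after each start. Windows were at hand for 58 of the 68 members, 74 windows in all. The half-site was in 11 of the 74, or 14.9%, against 5340 of 32851 windows of all genes, or 16.3%. Direct repeats of AGGTCA with a spacer of 1, 4 or 5 bases were in 0 of the 74 windows and in 13, 5 and 3 of the 32851; each such repeat also counts as a half-site. A match is a run of letters and not a site that is known to be bound. The 250 bases before the start are shown for the member with the smallest p in cKO against Loxp, Epha6 (chr16:60605532-60605781, minus strand), whose window did not hold the half-site, and for Plxnd1 (chr6:115995006-115995255, minus strand), the most abundant plexin, which held it once from base 148. Capitals mark the half-site, read here as its reverse complement TGACCT.
Epha6: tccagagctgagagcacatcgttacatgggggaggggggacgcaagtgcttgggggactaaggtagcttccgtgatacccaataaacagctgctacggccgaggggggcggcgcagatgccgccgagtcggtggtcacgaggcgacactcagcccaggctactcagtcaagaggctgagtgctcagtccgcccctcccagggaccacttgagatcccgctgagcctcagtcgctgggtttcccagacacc
Plxnd1: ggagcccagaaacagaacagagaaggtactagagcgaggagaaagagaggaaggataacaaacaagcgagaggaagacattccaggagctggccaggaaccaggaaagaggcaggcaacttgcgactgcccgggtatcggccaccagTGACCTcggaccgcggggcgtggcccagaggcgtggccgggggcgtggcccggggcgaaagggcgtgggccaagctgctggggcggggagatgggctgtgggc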

How the data were processed

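RNA-seq of 10 S1BF samples was analysed from the gene table the authors deposited. The submitters' processing notes name featureCounts 1.5.0-p3 and the build mm10 for the read counts the authors deposited; the aligner is not given in the sources used here. Per the labels' protocols, 3 µg of Trizol RNA per sample went into NEBNext Ultra RNA libraries. The FPKM are the authors' deposited values and were used as levels only. Members and lists were chosen with earlier results of these data known.

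Counts were tested with edgeR 4.0.16 in R 4.3.3 (TMM, filterByExpr, quasi-likelihood), with all 10 libraries in 1 fit with a mean per group and Benjamini-Hochberg adjustment over 18455 genes at a threshold of 0.05; adjusted p-values are edgeR's unless another tool is named. The common biological coefficient of variation was 14.9%. SE is the log2 fold change divided by the root of its F statistic, and 95% intervals use the moderated degrees of freedom. CPM use TMM-scaled totals. The test was checked on simulated counts. Total counts limit the precision of the weakest genes, and PCR reads without molecular identifiers are not independent molecules. The authors' deposited table of their own comparisons (log2 fold changes, p-values) was read for its count of calls.

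Named were the highest and lowest member of each class by mean FPKM, and the members with the 12 smallest p in cKO against Loxp, the 8 smallest between Hetero and Loxp and the 6 smallest between cKO and Hetero; from each list the 2 genes with the smallest p; Rxra and Neurod6. Coordinates are those of GENCODE M21 (GRCm38). Alternatives were DESeq2 size factors, library size alone, 2 other low-count filters, only the groups compared, a replicate block, DESeq2 1.42.0, limma-voom (limma 3.58.1), and each library left out in turn. An exon of 17 members overlaps that of another gene, 14 of them on the opposite strand.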

Additional observations from a re-analysis of the deposited data

Results flagged for a closer look

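In 7 of 136 groups of 4 libraries (68 genes in cKO and in Loxp) a single library lay far from the other 3, with a gap to its nearest neighbour that was, as a share of the group's range, above Dixon's 95% critical value for 4 samples; chance gives about 1 in 20. Sema4g had 64.0 CPM in cKO 2, against 35.9 to 37.5 in the other cKO libraries. Plxna2 had 153 CPM in cKO 2, against 201 to 203. Ntn1, a netrin, had 16.8 CPM in cKO 2, against 10.3 to 10.9. Epha6 had 7.15 CPM in cKO 4, against 12.1 to 12.8, and Epha3, another EphA receptor, 5.64 CPM in cKO 4, against 7.36 to 7.61. Sema6b had 246 CPM in Loxp 2, against 357 to 369 in the other Loxp libraries, and Plxna3 had 37.3 CPM in Loxp 2, against 23.2 to 24.2. The 7 cases fell on 3 libraries: 3 on cKO 2, 2 on cKO 4 and 2 on Loxp 2.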

How the results depend on the processing

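No guidance gene passed the adjusted threshold under any alternative that was run, and no log2 fold change of a member named for its small p reversed; Plxnd1, named as the most abundant plexin, had 0.22 in cKO against Loxp and −0.02 without cKO 2. The count of all genes called, 0 in each comparison in edgeR, was higher with no low-count filter. It was 32 in cKO against Loxp, 68 in Hetero against Loxp and 39 in cKO against Hetero. Members with an unadjusted p under 0.05 then numbered 12, 4 and 2, and the share of all genes at that p was not counted. With no low-count filter, the 39 genes called in cKO against Hetero included the Y-linked genes Eif2s3y, Ddx3y, Kdm5d and Uty. The sample labels used here give no sex, and a part of sex in the comparisons was not tested. The members Plxna3, Plxnb3 and Efnb1 lie on chromosome X. DESeq2 called 2, 17 and 3 genes. With single libraries left out the range was 0 to 1 in cKO against Loxp, 0 to 15 in Hetero against Loxp and 0 to 14 in cKO against Hetero, the upper ends without cKO 2 in the first and without Hetero 1 in the other two. The genes called without Hetero 1 included the choroid plexus markers Ttr, Kl, Clic6, Folr1 and Otx2 in both comparisons. The Hetero library left in those fits was Hetero 2, which carried choroid plexus RNA. The causes were not tested. Replicate numbers did not pair the samples by the threshold set. Same-numbered cKO and Loxp libraries had correlations of deviations of 0.042 to 0.32 over 4 pairs, not all over 0.1. Every differently numbered pair lay below these, at −0.23 to 0.035, and 8 of 8 libraries were closest to their own number. That is a hint of pairing of cKO with Loxp from the data and not the design. Same-numbered Hetero libraries showed no such pattern, at −0.026 and −0.0081 with Loxp and 0.023 and −0.015 with cKO. The block used the Hetero numbers all the same. With the replicate block 1 gene was called in cKO against Loxp, 1 in Hetero against Loxp and 0 in cKO against Hetero, none of them a member. Members with an unadjusted p under 0.05 numbered 7, 3 and 5, against 5, 2 and 1 without the block. The share of all genes at that p was not counted under the block, so these numbers cannot be set against all genes. Depth limits Epha1 and Efna4, which had under 1 CPM in every library; Efna4 was not fitted without cKO 2 or without Loxp 2.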
